A study of Mus musculus with 113 samples.

Results

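The genes described here encode the subunits of the 5 complexes of oxidative phosphorylation. They were chosen by symbol: names that start with Nduf (leaving out the Ndufaf assembly factors), Uqcr, Atp5 or Cox4 to Cox8, together with Sdha, Sdhb, Sdhc, Sdhd and Cyc1. The rule took 87 of the 23739 gene symbols of the series, with 38 genes in complex I, 4 in complex II, 9 in complex III, 19 in complex IV and 17 in complex V, and 81 of the 87 were listed in all 4 expression tables. No measured value entered the rule. Of the genes it took, 3 were set apart as not subunits (Cox4nb, Atp5s and Atp5sl), and the counts of members include them unless stated otherwise. Complexes were assigned by symbol alone, which puts Cox7a2l in complex IV and Ndufa4 and Ndufa4l2 in complex I.

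The study followed mouse embryonic stem (ES) cells through neural differentiation by RNA sequencing. R1 ES cells were differentiated as floating aggregates in serum-free medium (SFEB, 22 cell population samples from 0 to 216 h in 2 series, and 64 single cells at 8 time points with 8 cells each) or as an adherent monoculture (15 samples from 0 to 216 h). E14 ES cells, wild type (WT) or with the kinase gene Fyn deleted (Fyn-KO), were sampled at day 0 and day 4 (D0 and D4) with 3 samples in each of the 4 groups. The Fyn-KO cells are 1 clone, sorted after Cas9 cutting at both ends of the deleted stretch, so that what is particular to the clone and what follows from the loss of Fyn cannot be told apart. The R1 cells were passaged once without feeder cells before differentiation, and both R1 protocols replated the cells on day 6. Values were deposited as FPKM (fragments scaled by transcript length and by the reads mapped in a library), which allow levels of different genes to be compared, except that the single cells were deposited as log10(RPKM + 1). The population time courses have 1 sample for nearly every time point, so samples were grouped into 4 windows by their labelled hours: the first (0 to 22 h), the second (34 to 68.5 h), the third (80 to 106 h) and the last window (125.5 to 216 h). P-values therefore measure the spread between the time points of a window, or between 3 samples in E14 that may be technical repeats, and a change in the RNA of each cell cannot be told apart from a change in which cells make up a culture.

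Oxidative phosphorylation passes electrons from NADH (complex I) or succinate (complex II) through ubiquinone to complex III, by cytochrome c to complex IV and on to oxygen, and complex V uses the proton gradient that complexes I, III and IV build to make ATP. All subunits of complex II and most subunits of the others are encoded in the nucleus, while a few core subunits are encoded in mitochondrial DNA. ES cells are known for high glycolysis beside respiration, and neural cells for a strong dependence on respiration. Of the 13 protein-coding genes of mitochondrial DNA, 0 were in the tables tested, so every value below is that of a nuclear gene.

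The libraries followed their labels. The summed FPKM of the naive pluripotency markers had a median of 769 in the first SFEB window and 56.3 in the last, and of 795 and 71.8 in the adherent culture, while the 6 neural progenitor markers went from a median of 32.0 to 661 and from 26.6 to 419. Neuron markers were higher in the last window too, with medians of 180 and 461 in SFEB and of 287 and 444 in the adherent culture. Mesendoderm markers were also called higher, 3 of 6 tested in SFEB and 4 of 4 in the adherent culture. Markers of fibroblasts, the usual feeder cells, moved the other way in R1 cells. All 10 listed genes were in each table, and their summed FPKM was 127 to 894 in the first SFEB window against 17.7 to 111 in the last, and 132 to 370 against 47.9 to 63.8 in the adherent culture. In E14 the sum was 2.41 to 12.7 in all 12 samples, with 8 or 9 of the 10 genes at a median below 1 FPKM in each group. Summed naive markers there went from a median of 1474 at D0 to 291 at D4 in WT cells and from 1315 to 260 in Fyn-KO cells. Neural progenitor markers went from 4.47 to 50.6 and from 2.91 to 17.6. Some libraries stood apart for the subunits. The SFEB sample at 2 h held the highest value of 54 of 84 members and of 12.03% of all genes tested, where an equal split gives 4.55%. The adherent sample at 41.5 h held the highest value of 34 of 83 members and of 10.7% of all genes tested (equal split 6.67%). Those at 35.5 and 41.5 h gave the lowest values of Uqcrb. In E14 the third WT D0 sample held the highest value of 23 of 83 members and the third Fyn-KO D4 sample of 20. For all genes tested these shares were 10.9% and 12.3% (equal split 8.33%). Results are given without these libraries where they matter.

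Most subunits were abundant transcripts throughout. Summed over all listed subunits, they took 2.82 to 3.36% of the total FPKM (small RNA genes left out) in the 7 samples of the first SFEB window and 2.63 to 2.83% in the 4 samples of the last, ranges that met at their edge. The adherent share was 3.34 to 3.41% at first and 2.69 to 2.97% at last, and these 2 groups did not overlap. By median level the most abundant member in both R1 cultures was Atp5b, the catalytic beta subunit of complex V, followed by Cox4i1, a nuclear subunit of complex IV. At the other end, Cox4i2 and Cox7b2, tissue-restricted forms of complex IV subunits, had medians below 1 FPKM in both R1 cultures, and Cox6a2, Cox8b and Cox8c were at a median of 0 in E14. Genes were tested where 3 or more samples reached 1 FPKM, which left 84 of 84 members in SFEB, 83 of 85 in the adherent culture (Cox4i2 and Cox6a2 did not pass) and 83 of 86 in E14 (Cox6a2, Cox8b and Cox8c did not pass).

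From the first to the last window the subunits that changed were mostly lower. In SFEB 34 of 84 members were called at an adjusted p below 0.05, against 67.5% of all 13363 genes tested, and 31 of the 34 were lower and 3 higher. Among all genes 30.1% were called lower and 37.4% higher. The median difference of the members was -0.14 on the log2(FPKM + 1) scale, beside 0.07 over all genes tested. For the adherent culture 35 of 83 members were called, against 59.6% of all 12879 genes tested, with 31 lower and 4 higher, where 24.9% of all genes were called lower and 34.7% higher. The median difference of the members was -0.20 there, beside 0.10 over all genes. The share of members called was thus below that of all genes in both cultures, and the called members were turned more to the lower side. How far they were depended on the scaling: quantile normalization gave 11 higher and 21 lower in SFEB and 9 higher and 26 lower in the adherent culture, and scaling each SFEB sample to the same total gave 8 higher and 26 lower. Within the first SFEB series alone 28 members were called (26 lower) and within the second, with 2 samples in each window, 6 were called, all lower.

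The counts by complex stand beside 30.1% of all genes called lower in SFEB and 24.9% in the adherent culture. Complex II showed no called member from the first to the last window in either culture: the 4 succinate dehydrogenase genes, from the flavoprotein Sdha to the membrane anchor Sdhd, differed by -0.16 to 0.09 in SFEB and by -0.18 to 0.12 in the adherent culture. Between neighbouring SFEB windows some of them were called, Sdhc at -0.32 from the first to the second (adjusted p = 0.00508, called in 28 of 29 alternatives) and Sdhd at -0.27 from the third to the last (adjusted p = 0.0219, called in 23 of 29). Complex III had 5 of 9 members called lower and 1 higher in each culture, with a median difference of -0.32 in SFEB and -0.50 in the adherent culture. Complex IV had 8 of 16 lower in SFEB (median difference -0.30) and 8 of 15 lower in the adherent culture (median -0.49), with 1 higher in each. Complex I had 11 of 38 lower and 1 higher in SFEB and 10 of 38 lower and 2 higher in the adherent culture, which is near the share of all genes called lower, and complex V had 7 and 8 of 17 lower and 0 higher. Without Cox4nb, Atp5s and Atp5sl, complex IV had 7 of 15 subunits lower in SFEB (median -0.22) and 7 of 14 in the adherent culture (median -0.49), and complex V had 6 and 7 of 15. No test compared the complexes with each other.

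**Figure D1:**
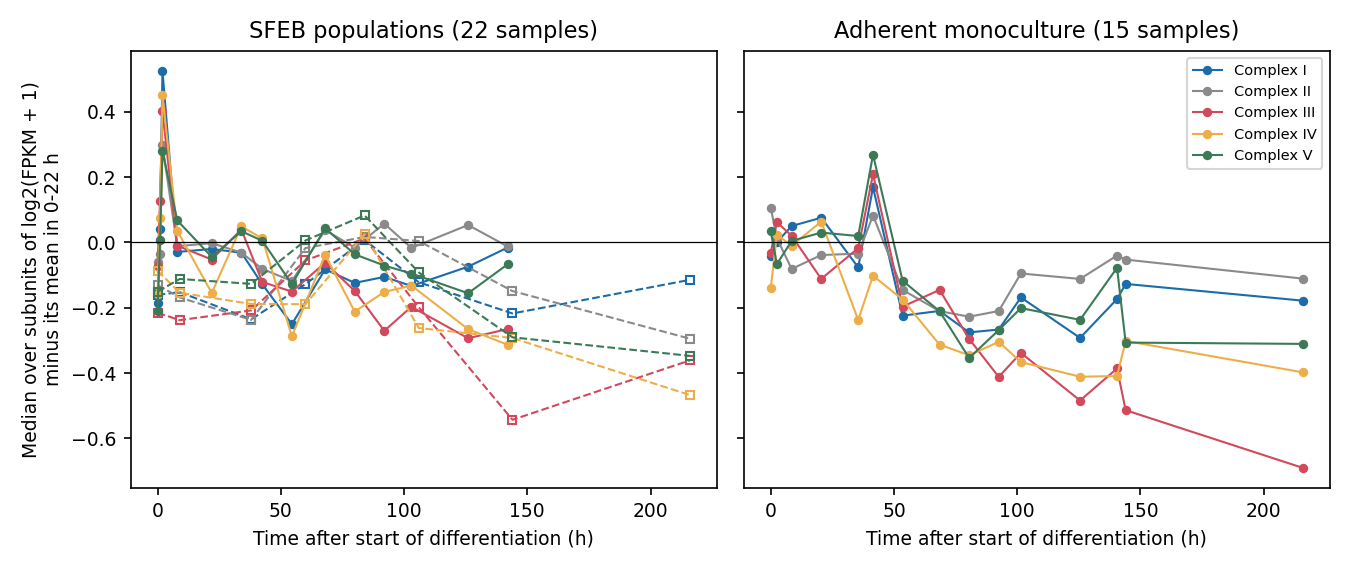
Median over the listed subunits of each complex of log2(FPKM + 1) minus each subunit's own mean in 0 to 22 h, against hours of differentiation (filled points and lines: first SFEB series and adherent culture, open squares and dashed lines: second SFEB series). Complex III reached -0.54 at its lowest point in SFEB and -0.69 in the adherent culture, complex II reached -0.29 and -0.23, and the SFEB peak is the 2 h sample.

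Of the members called lower, 23 were shared by the 2 cultures, which is 76.7% of the 30 lower in SFEB and 74.2% of the 31 lower in the adherent culture among the 83 members tested in both. Over all 12706 genes tested in both cultures, 69.7% of those lower in SFEB and 83.0% of those lower in the adherent culture were shared, so a share of this size is not particular to the subunits. Over those 83 genes the differences of the 2 cultures, which share no sample, had a Pearson r of 0.54 and a Spearman rho of 0.68, given as a description since genes are not independent replicates. Of them, 54 genes were below 0 in both cultures, 12 above 0 in both and 17 on opposite sides. The E14 line gave a further course, 4 days long. There 13 of 83 members were called between D0 and D4 in WT cells, against 25.8% of all 12257 genes tested, with 12 lower and 1 higher (10.3% and 15.5% of all genes). In Fyn-KO cells 7 members were called, all lower, against 19.3% of all genes tested either way and 7.56% lower. The 5 members called lower in all 4 courses were Atp5b, Atp5g1, Cox5a, Ndufb10 and Uqcrc1, and 3 more, Cox7a1, Ndufa11 and Uqcr10, were lower in SFEB, the adherent culture and WT E14. Of the 82 members tested in all 4 courses, those 5 make 6.1% and the 8 together 9.76%. Of the 11134 genes tested in all 4, 376 (3.38%) were lower in all 4 and 662 (5.95%) in those 3 courses. The difference between these shares was not tested.

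**Figure D2:**
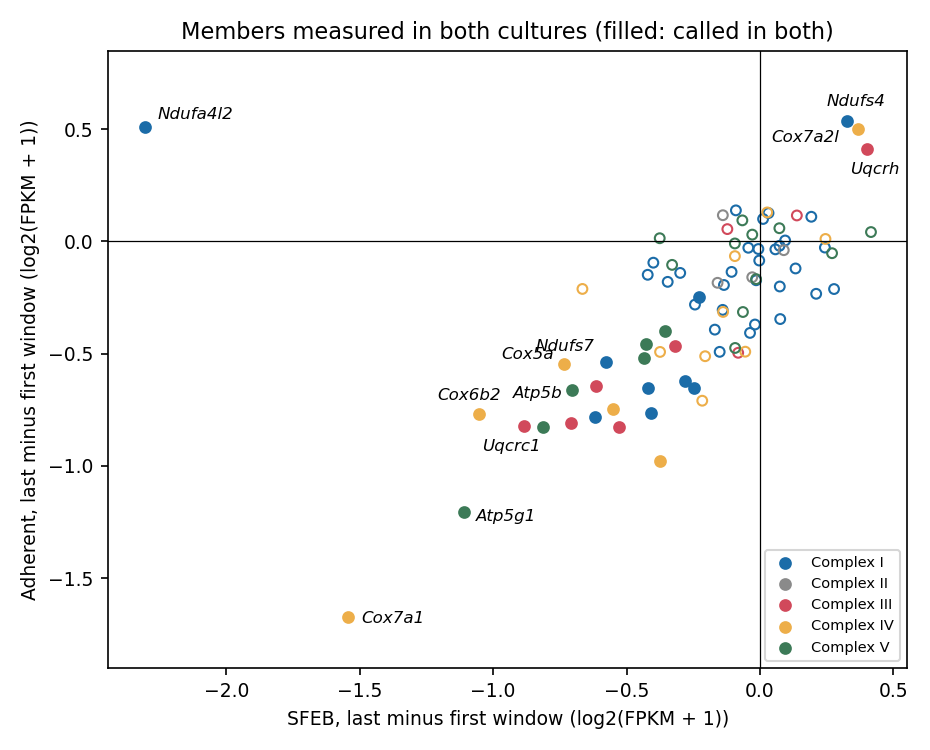
Difference between the last and the first window on the log2(FPKM + 1) scale in SFEB (x axis) and in the adherent culture (y axis) for the 83 members tested in both, coloured by complex, with filled points for members called in both. Cox7a1 and Atp5g1 lie lowest among the points below 0 in both cultures, Ndufs4, Cox7a2l and Uqcrh are the called points above 0 in both, and Ndufa4l2 lies at -2.31 in SFEB and 0.51 in the adherent culture.

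Uqcrc1 encodes a core protein of complex III that faces the mitochondrial matrix. Its FPKM in the first SFEB window was 214.6 at the lowest, 244.9 at the median and 307.5 at the highest, against 114.4, 133.8, 136.5 and 154.5 in the last window. Every late sample was below every early one. The difference was -0.88 ± 0.11 (SE, limma adjusted p = 2.65e-07). Its adherent FPKM was 326.4, 321.9, 315.8 and 283.2 in the first window and 183.6, 210.4, 144.3 and 171.6 in the last, a difference of -0.82 ± 0.17 (adjusted p = 0.000613). In WT E14 cells it was 222.2, 204.2 and 198.8 at D0 and 110.5, 118.6 and 132.9 at D4, and in Fyn-KO cells 241.7, 251.9 and 185.2 at D0 and 107.2, 128.2 and 112.3 at D4. No D4 value reached a D0 value of its own line, and the differences were -0.79 ± 0.14 (adjusted p = 0.00231) and -0.95 ± 0.14 (adjusted p = 0.00117). The other core protein, Uqcrc2, differed by 0.14 ± 0.09 in SFEB and 0.12 ± 0.11 in the adherent culture and was called in none of these 4 courses. Of the electron carriers of complex III, Cyc1, cytochrome c1, fell by 0.62 in SFEB (adjusted p = 6.51e-06) and by 0.64 in the adherent culture (adjusted p = 0.000549), and the Rieske iron-sulfur protein Uqcrfs1 was not called (-0.12 ± 0.12 and 0.06 ± 0.10), with no test between the genes. Of the small subunits, Uqcr10, Uqcr11 and Uqcrq were called lower in both R1 cultures and Uqcrh higher.

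Cox5a, a nuclear subunit of complex IV, had an FPKM of 284.7 at the lowest, 350.5 at the median and 601.6 at the highest in the first SFEB window, the last value being the 2 h sample, and of 202.8, 210.6, 227.1 and 228.6 in the last. The 2 windows did not overlap, and the difference was -0.74 ± 0.14 (adjusted p = 9.23e-05). Adherent values were 364.0 to 411.6 in the first window and 254.9 to 295.7 in the last (difference -0.54 ± 0.12, adjusted p = 0.00142). In WT E14 cells it was 339.0, 383.0 and 383.7 at D0 and 161.5, 219.8 and 180.4 at D4 (difference -0.98 ± 0.16, adjusted p = 0.00197), and in Fyn-KO cells 281.7, 323.9 and 209.4 at D0 and 179.3, 199.0 and 174.2 at D4 (difference -0.54 ± 0.16, adjusted p = 0.0390, called in 8 of 18 alternatives). Atp5b had an FPKM of 1055.9 to 1255.0 in the first SFEB window and 636.4 to 779.7 in the last (difference -0.71 ± 0.08, adjusted p = 2.35e-07), and of 1308.4 to 1435.7 and 822.4 to 932.4 in the adherent culture (difference -0.66 ± 0.11, adjusted p = 0.000138). The catalytic subunit thus ranged clear of overlap in both cultures, at a high level throughout. Ndufb10, an accessory subunit of the membrane arm of complex I, fell by 0.41 in SFEB (adjusted p = 0.00737), by 0.77 in the adherent culture (adjusted p = 0.000411), by 0.56 in WT E14 and by 0.55 in Fyn-KO E14 (adjusted p = 0.0176 and 0.0227). Its SFEB windows overlapped, with 71.8 FPKM at the lowest of the first and 79.3 at the highest of the last. Within the second SFEB series Atp5b, Cox5a and Uqcrc1 were still called, at -0.61, -0.42 and -0.60, and Ndufb10 was not (-0.20, adjusted p = 0.437).

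Subunit c, which forms the membrane ring of complex V, is made from 3 nuclear genes. Atp5g1, Atp5g2 and Atp5g3 encode proteins that differ in the leader peptide removed on import and end in nearly the same stretch. In the mm9 assembly (GENCODE) Atp5g1 lies on the minus strand at chr11:95930166-95936984, Atp5g2 on the minus strand at chr15:102493299-102501478 and Atp5g3 on the minus strand at chr2:73746504-73749383. The last 228 bases of each coding sequence are printed because they show whether reads can be told apart between the genes, with the 58 positions at which the 3 genes do not all hold the same base in capitals.
Atp5g1: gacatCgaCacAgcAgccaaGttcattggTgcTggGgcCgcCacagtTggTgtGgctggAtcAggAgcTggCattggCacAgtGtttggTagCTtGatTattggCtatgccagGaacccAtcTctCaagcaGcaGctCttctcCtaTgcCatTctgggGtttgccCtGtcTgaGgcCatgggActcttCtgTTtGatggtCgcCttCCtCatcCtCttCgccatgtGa
Atp5g2: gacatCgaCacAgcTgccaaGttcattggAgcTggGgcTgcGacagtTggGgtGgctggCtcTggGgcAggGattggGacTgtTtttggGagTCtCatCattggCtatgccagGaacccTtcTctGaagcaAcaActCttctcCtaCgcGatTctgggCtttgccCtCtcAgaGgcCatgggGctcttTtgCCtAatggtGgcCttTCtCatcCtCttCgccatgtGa
Atp5g3: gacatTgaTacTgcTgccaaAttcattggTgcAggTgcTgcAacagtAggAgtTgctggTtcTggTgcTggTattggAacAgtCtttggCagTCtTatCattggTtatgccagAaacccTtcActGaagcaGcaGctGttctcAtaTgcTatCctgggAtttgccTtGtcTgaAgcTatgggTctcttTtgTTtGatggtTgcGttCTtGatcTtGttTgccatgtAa
Over this stretch Atp5g1 and Atp5g2 shared 85.1% of the bases, with a longest equal run of 21 bases, Atp5g1 and Atp5g3 shared 79.8% (longest run 11) and Atp5g2 and Atp5g3 78.5% (longest run 8). Upstream of it, aligned from its start without gaps, 31.1 to 39.4% of the coding bases were equal.

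The balance of the 3 genes changed in both R1 population courses and in both E14 lines. Atp5g1 had an FPKM of 254.8 at the lowest, 306.2 at the median and 372.8 at the highest in the first SFEB window and of 139.8, 137.1, 153.7 and 139.5 in the last, clear of overlap, with a difference of -1.11 ± 0.12 (adjusted p = 5.45e-08), which is 2.16-fold lower. Adherent values were 405.6, 445.4, 529.0 and 409.1 in the first window and 235.5, 216.0, 141.0 and 189.7 in the last, a difference of -1.21 ± 0.19 (adjusted p = 6.59e-05). In WT E14 cells it was 419.3, 474.4 and 509.4 at D0 and 193.4, 240.8 and 231.6 at D4 (difference -1.07 ± 0.14, adjusted p = 0.00063), and in Fyn-KO cells 281.3, 341.2 and 255.6 at D0 and 161.5, 131.4 and 130.8 at D4 (difference -1.04 ± 0.14, adjusted p = 0.00101). The call held in every alternative setting of all 4 comparisons, and in both SFEB series taken alone (-1.22 and -0.87). Atp5g2 was not called in any of them, at 0.07 ± 0.10 in SFEB, 0.06 ± 0.14 in the adherent culture, 0.24 ± 0.12 in WT and 0.25 ± 0.12 in Fyn-KO cells. Atp5g3 was at -0.33 ± 0.13 in SFEB (adjusted p = 0.0355, called in 20 of 29 alternatives, -0.49 to -0.05), -0.10 ± 0.11 in the adherent culture, -0.33 ± 0.12 in WT (adjusted p = 0.0706) and -0.14 ± 0.12 in Fyn-KO cells, and was not called in the last 3. As a share of the FPKM summed over the 3 genes, Atp5g1 went from 31.8 to 36.2% in the first SFEB window to 18.9 to 22.2% in the last, and from 34.9 to 42.0% to 14.9 to 25.4% in the adherent culture. In E14 its share was 35.6 to 38.5% at D0 and 19.1 to 23.1% at D4 in WT cells, and 25.9 to 29.5% and 12.7 to 16.7% in Fyn-KO cells. Atp5g2 had the highest median share in the first SFEB window too, 37.0% against 33.4% for Atp5g1, with the ranges overlapping. In the first adherent window these medians were nearly level, at 37.4 and 37.3%. Atp5g2 held the largest share at the end of each course, 44.2 to 52.6% in SFEB, 45.9 to 59.4% in the adherent culture, 45.2 to 56.4% in WT and 54.9 to 63.1% in Fyn-KO cells. The summed fibroblast markers were also lower at the end of the R1 courses. Their SFEB medians by window were 628, 35.9, 25.9 and 30.3 FPKM, beside 306, 283, 192 and 140 for Atp5g1. The part of these markers in its change was not tested.

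**Figure D3:**
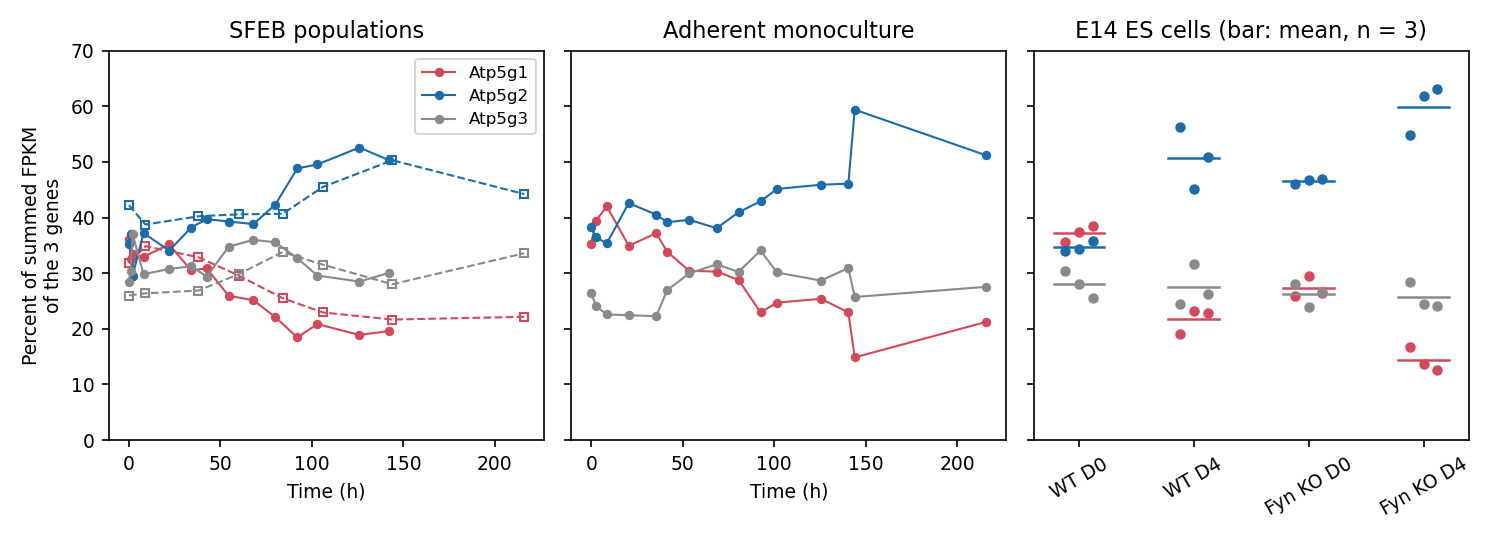
Share of Atp5g1, Atp5g2 and Atp5g3 in their summed FPKM (percent) over hours of differentiation in SFEB (filled: first series, open squares: second series) and in the adherent culture, and in the 12 E14 samples by group. Atp5g1 fell from 31.8 to 36.2% to 18.9 to 22.2% in SFEB. Atp5g2 held the largest share in the last window of both cultures and at D4 in both lines. It already did so in Fyn-KO cells at D0 (46.0 to 46.9%) and by the median in the first SFEB window (37.0%). In the first adherent window the medians of Atp5g2 and Atp5g1 were nearly level (37.4 and 37.3%).

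Other subunit pairs also have a common and a tissue-restricted form. Cox7a1, the heart and muscle form of a complex IV subunit, had the largest fall of the called members in the adherent culture and the largest after Ndufa4l2 in SFEB. It was at 16.1 FPKM at the lowest, 22.0 at the median and 28.6 at the highest in the first SFEB window and at 6.1, 7.4, 10.2 and 3.9 in the last, a difference of -1.54 ± 0.24 (adjusted p = 6.54e-06). Its adherent values were 28.4, 39.0, 43.6 and 43.0 at first and 11.05, 10.9, 13.5 and 9.7 at last (difference -1.67 ± 0.29, adjusted p = 0.00015). In WT E14 cells it was 46.1, 124.4 and 197.6 at D0 and 31.8, 27.9 and 67.2 at D4, groups that overlapped (difference -1.39 ± 0.47, adjusted p = 0.0484, called in 7 of 18 alternatives). In Fyn-KO cells it was 73.1, 63.6 and 42.0 at D0 and 43.2, 72.6 and 51.1 at D4 (difference -0.09 ± 0.47). The widely used form Cox7a2 was not called in these courses (-0.09 ± 0.17 in SFEB and -0.07 ± 0.11 in the adherent culture). Cox6b2, the testis form of another complex IV subunit, was at 20.4 FPKM at the lowest, 43.6 at the median and 55.4 at the highest in the first SFEB window and at 12.1, 10.7, 28.4 and 25.0 in the last (difference -1.05 ± 0.28, adjusted p = 0.00232), and it differed by -0.27 (adjusted p = 0.468) within the second series. Its adherent values were 47.2, 60.4, 69.9 and 64.3 at first and 25.6, 24.4, 73.0 and 31.5 at last (difference -0.77 ± 0.26, adjusted p = 0.0199), where the sample at 144 h overlapped the early ones. Ndufa4l2, a paralog of Ndufa4 known to be raised under low oxygen, was low and uneven: 0.8 FPKM at the lowest, 11.1 at the median and 24.1 at the highest in the first SFEB window, 1.1, 0.7, 2.4 and 0.2 in the last, and 0.4 to 0.6 in the first and 0.9 to 1.5 in the last adherent window. The windows overlapped in SFEB and not in the adherent culture, and both differences were called (-2.31 ± 0.50, adjusted p = 0.000355, and 0.51 ± 0.20, adjusted p = 0.0351), in opposite directions, but the adherent call, at about 1 FPKM, held in 14 of 20 alternatives (0.25 to 1.01, adjusted p up to 0.312). Among the other forms, Cox4i1 was called lower in the adherent culture only (-0.51, beside -0.21 in SFEB), as was Cox6a1 (-0.71 and -0.22), while Cox8a (-0.67 in SFEB, -0.21 in the adherent culture) and Cox7b (-0.37 and -0.49) were called in SFEB alone, with no test of the difference between the cultures. Cox6b1 (0.25 and 0.01) and Ndufa4 (0.07 and -0.02) were called in neither. Cox7b2 was called lower in both (-0.55 and -0.75). Its medians in the first and last windows were under 1 FPKM, with single values up to 2.03 in SFEB and 1.68 in the adherent culture. The tables were normalized separately, so levels were not compared between them. The summed fibroblast markers fell with Ndufa4l2, Cox6b2 and Cox7a1 in SFEB, and their part in these changes was not tested.

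Against the trend, 3 members were called higher in both R1 cultures. Over all 12706 genes tested in both, 3667 were called higher in both, which is 76.3% of those higher in SFEB and 83.5% of those higher in the adherent culture. Ndufs4, an accessory subunit of complex I needed for its stable assembly, was at 29.6 FPKM at the lowest, 32.7 at the median and 50.5 at the highest in the first SFEB window, the highest being the 2 h sample, and at 46.7, 51.7, 34.9 and 38.4 in the last (difference 0.33 ± 0.11, adjusted p = 0.0134). In adherent cells it was 25.3, 32.5, 31.0 and 40.6 at first and 41.2 to 51.8 in the 4 samples at last, clear of overlap (difference 0.54 ± 0.16, adjusted p = 0.00777). Cox7a2l, which joins complexes III and IV in supercomplexes, was at 79.3, 87.8 and 149.3 FPKM (lowest, median, highest) in the first SFEB window and at 120.1, 134.4, 104.5 and 114.0 in the last (difference 0.37 ± 0.12, adjusted p = 0.0103). It was at 77.2 to 87.0 and 90.6 to 163.9 in the adherent culture (difference 0.50 ± 0.14, adjusted p = 0.00525). Uqcrh, the hinge protein of complex III, was at 79.5, 97.3 and 192.7 FPKM in the first SFEB window and at 142.9, 153.0, 98.8 and 140.2 in the last (difference 0.40 ± 0.16, adjusted p = 0.0356, called in 18 of 29 alternatives). It was at 124.7 to 161.4 and 158.4 to 217.5 in the adherent culture (difference 0.41 ± 0.12, adjusted p = 0.00813). For all 3 the highest early SFEB value was the 2 h sample, and without it the differences were 0.40, 0.47 and 0.53. Within the second SFEB series alone they were 0.25, 0.39 and 0.53 and none was called. In E14 none of the 3 was called between D0 and D4.

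Nuclear core subunits of complex I carry its flavin and iron-sulfur clusters. Of those described here, Ndufs7, Ndufs8 and Ndufv1 were called lower in SFEB and the same 3 and Ndufs1 in the adherent culture. The SFEB call of Ndufs8 (-0.25, adjusted p = 0.0414) held in 20 of 29 alternatives and its difference was 0.03 in the second series alone. Ndufv1, which binds NADH and the flavin, fell by 0.42 (adjusted p = 0.00145) and by 0.66 (adjusted p = 0.000209), and Ndufs7, which holds the last cluster before ubiquinone, by 0.58 (adjusted p = 0.000994) and by 0.54 (adjusted p = 0.000618). Ndufs3 and Ndufv2 were not called in either culture, with differences of -0.17 to 0.13. Of the 3 genes that match the naming rule without being subunits, Cox4nb fell by 0.37 in SFEB and by 0.98 in the adherent culture, Atp5sl by 0.81 and 0.83, and Atp5s was not called in either.

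The changes fell at different steps. In SFEB 19 members were called from the first to the second window, 2 higher and 17 lower, against 40.5% of all genes (17% higher, 23.5% lower), with Ndufa4l2 (-2.25), Cox6b2 (-1.41) and Cox4i2 (-1.12) lowest and Cox7b2 (0.74) and Sdha (0.17, called in 7 of 29 alternatives) higher, while Sdhc was among the lower ones. From the second to the third window 6 were called, 2 higher (Cox6b1, called in 21 of 29 alternatives, and Ndufs4, in 12 of 29) and 4 lower, with Cox7b2 (-0.98) lowest, against 33.1% of all genes (21.5% higher, 11.5% lower). The step from the third to the last window had 13 called, 2 higher (Ndufa3 and Ndufb4, accessory subunits of complex I) and 11 lower, against 39.8% (24.7% higher, 15.1% lower). Atp5g1 was called at both later steps (-0.42 and -0.49) and Cox7a1 too (-0.62 and -0.82), though the earlier of these Cox7a1 calls held in 21 of 29 alternatives and its difference was 0.05 in the second series alone. At the last step the other genes of subunit c were called lower as well, Atp5g3 at -0.50 (adjusted p = 0.00911, called in 27 of 29 alternatives) and Atp5g2 at -0.27 (adjusted p = 0.0434, called in 17 of 29). In the adherent culture 6 members were called lower and 0 higher from the first to the second window, against 15.1% of all genes (9.26% lower, 5.84% higher), with Uqcrb (-1.16), Ndufa5 (-0.74) and Ndufb4 (-0.46) lowest. Uqcrb was at 36.6 and 46.8 FPKM at 35.5 and 41.5 h and at 82.1 to 185.9 in the other 13 samples. From the second to the third window 19 were called, all lower, against 28.8% of all genes (10.3% lower, 18.5% higher), led by Cox7a1 (-0.998), Atp5g1 (-0.68) and Uqcrc1 (-0.64). Without the 35.5 and 41.5 h samples the counts were 15 and 1, so that the step to which the adherent fall belongs was not settled. From the third to the last window 0 members were called by limma, against 6.72% of all genes (5.51% higher, 1.2% lower), and 3 of 83 had an unadjusted p below 0.05, where 24.5% of all genes did.

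In single SFEB cells the subunits were widely detected. Across 64 cells the median member was above 0.5 RPKM in 63 cells, where the median over all genes of the table was 24 cells, and 71 of 82 members were detected in at least 48 cells. The least detected were Atp5s (4 cells), Ndufs5 (7) and Cox7a1 (9). The number of members detected per cell was 58 to 79, with 4914 to 5214 genes detected in all. Detected here means above 0.5 RPKM after quantile normalization, which gives all cells nearly the same number of genes above a cut. Genes at 0 numbered 1012 to 5801 of 11449 per cell. Ordered by the median over members of the mean log10(RPKM + 1) at each time point, the 60 h cells stood lowest at 0.92 and the 106 h cells highest at 1.43. Of the 82 members, 33 had their lowest mean at 60 h, where 8.54% of all genes did, and 27 their highest at 106 h, where 11.9% of all genes did. The mean over members in single cells was 1.00 to 1.31 at 60 h and 1.295 to 1.63 at 106 h, so these 2 time points overlapped at the edge. The 60 h cells had 1157 to 3027 genes at 0 each, and the 106 h cells 3114 to 4913. The part of this in the order of the time points was not tested. Between the first (0 and 9 h) and last (144 and 216 h) pairs of time points 0 members were called by limma on time point means, against 0.725% of all genes (0.358% higher, 0.367% lower). An unadjusted p below 0.05 was found for 8 of 82 members (9.76%) and for 14.5% of all genes. The members went both ways, 47 above 0 and 35 below, with a median difference of 0.07 on the log10 scale, where the median member of the SFEB populations was at -0.14 on the log2 scale. In complex IV 10 of 14 members were above 0 (median 0.30, log10 scale), against a median of -0.30 (log2 scale) in the populations. The latter covers 16 members, with Cox4i2 and Cox7b2, which the cells lack. Complexes I, II, III and V had medians of 0.12, -0.32, -0.01 and -0.05 in the cells. The members nearest to a call were Atp5b, at -0.51 ± 0.12 (adjusted p = 0.0618), and Uqcrc1, at -0.57 ± 0.18 (adjusted p = 0.151), on the log10 scale. The next was above 0, Atp5e at 0.69 ± 0.25 (adjusted p = 0.213), and Uqcrh, called higher in both R1 cultures, was at 0.60 ± 0.28 (adjusted p = 0.334). Atp5g1 was at 1.55 ± 0.24 (SD, n = 8 cells) at 0 h, 2.18 ± 0.18 at 9 h and 1.52 ± 0.32 at 216 h, and Atp5g2 at 2.32 ± 0.16, 2.50 ± 0.11 and 2.36 ± 0.28. Over the 8 time points the lowest means were 1.31 for Atp5g1 and 2.13 for Atp5g2. The 216 h cells include S4b-16, which the paper describes as an outlier that stayed in the original stage.

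The E14 samples addressed whether the loss of Fyn changes differentiation. Fyn was at 3.21, 2.74 and 4.00 FPKM at D0 and 9.44, 4.54 and 6.76 at D4 in WT cells, and at 0.598, 0.598 and 1.10 at D0 and 1.19, 1.13 and 1.58 at D4 in Fyn-KO cells. Every Fyn-KO sample was below every WT sample. Summed neuron markers at D0 were 24.4 to 86.4 FPKM in WT and 121 to 206 in Fyn-KO cells, without overlap. At D4 neural progenitor markers were 23.3 to 182 and 10.1 to 31.2, and mesendoderm markers 4.02 to 32.3 and 1.46 to 7.36, both with overlap. Naive markers overlapped between the lines at both days. The part of cell state in the differences between the lines was not tested. Between D0 and D4 in WT cells Ndufc2, an accessory subunit of complex I, was the 1 member called higher: 70.8, 85.01 and 90.8 FPKM at D0 and 117.6, 123.6 and 110.2 at D4, a difference of 0.51 ± 0.14 (adjusted p = 0.0196), called in 14 of 18 alternatives and as small as 0.13 (adjusted p = 0.691) in one of them. In Fyn-KO cells it differed by 0.40 ± 0.14 (adjusted p = 0.0616). Uqcrb, a small subunit of complex III, was at 417.6, 620.4 and 596.7 at D0 and 354.1, 329.2 and 352.4 at D4 in WT cells (difference -0.64 ± 0.16, adjusted p = 0.0155). In Fyn-KO cells it was already at 328.9, 302.5 and 238.4 at D0 and at 328.7, 286.5 and 333.2 at D4.

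Between Fyn-KO and WT cells at D4 a single member was called, Ndufs7, among 9 called genes of all 12257 tested (0.0734%, with 0.0653% lower and 0.00816% higher). Its FPKM was 73.6, 62.7 and 92.6 in WT cells and 24.7, 18.2 and 17.4 in Fyn-KO cells at D4, so the highest Fyn-KO value was below the lowest WT value by over 2-fold. The difference was -1.87 ± 0.18 (limma adjusted p = 0.00125), which is 3.66-fold lower, and it was called in each of 18 alternative settings (-2.02 to -1.72). At D0 the values were 98.3, 78.0 and 92.4 in WT and 48.5, 56.4 and 60.0 in Fyn-KO cells, again without overlap, with a difference of -0.69 ± 0.18 that was not called (adjusted p = 0.125). Ndufs7 fell between D0 and D4 in Fyn-KO cells (-1.42 ± 0.18, adjusted p = 0.000562) and differed by -0.24 ± 0.18 in WT cells (adjusted p = 0.34), and the difference between these 2 changes was -1.18 ± 0.25 with an adjusted p of 0.624 over all genes, where 0 genes were called and 537 had an unadjusted p below 0.05, 3 members among them. The difference at D4 was thus not shown to exceed that at D0. The core subunits Ndufs1, Ndufs3, Ndufs8, Ndufv1 and Ndufv2 differed between the lines by -0.31 to 0.22 at D4 and none was called.

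**Figure D4:**
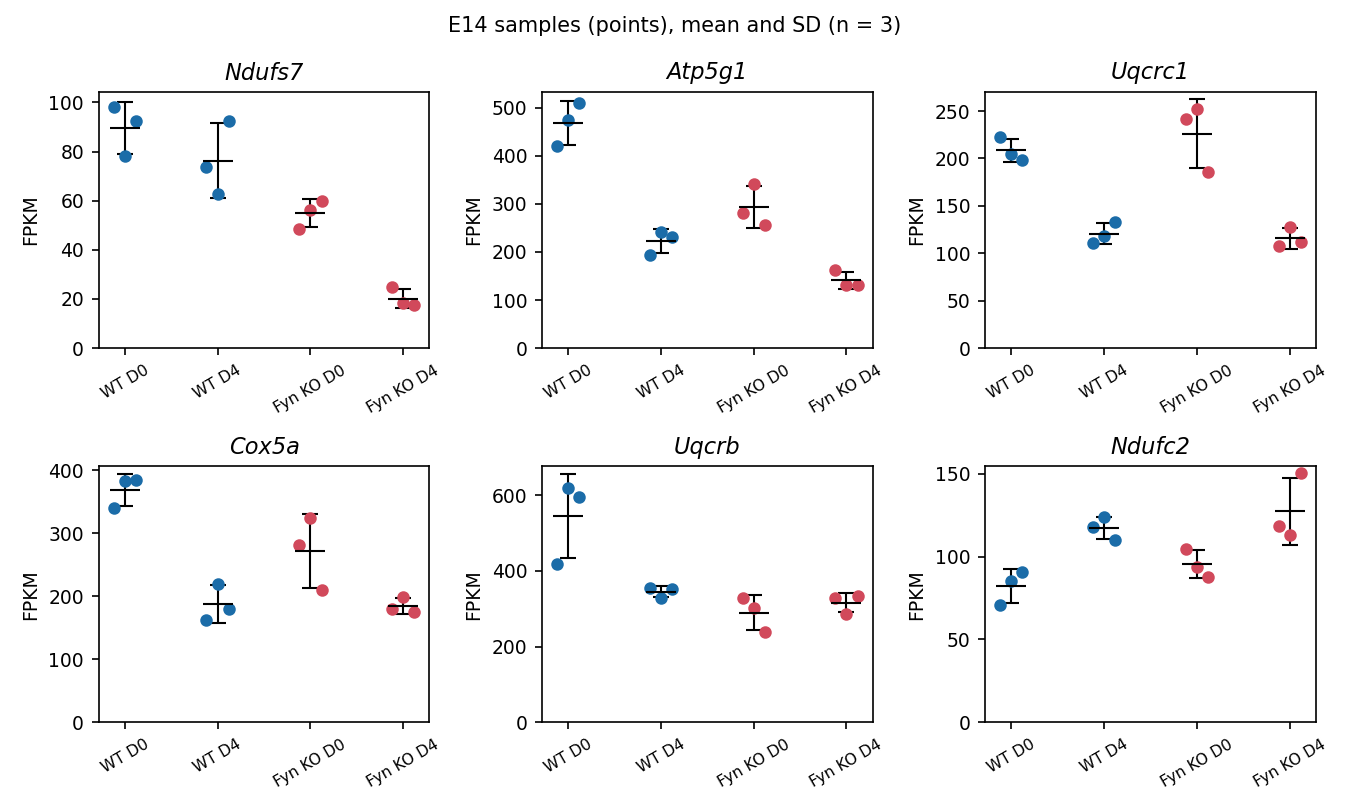
FPKM of Ndufs7, Atp5g1, Uqcrc1, Cox5a, Uqcrb and Ndufc2 in the 12 E14 samples (points, blue WT and red Fyn-KO) with the mean and SD of each group (n = 3), on linear axes from 0. Ndufs7 was at 17.4 to 24.7 in Fyn-KO cells at D4 against 62.7 to 92.6 in WT cells, while Uqcrc1 and Cox5a met at D4 in both lines.

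Ndufs7 lies on the plus strand of chromosome 10 at chr10:80249105-80256794 (GRCm38), the chromosome that also carries Fyn. Of the 45 other tested genes that start within 500 kb of it, 1 was called at D4 (Mum1, at -1.79) and their median difference was -0.01. Mum1 was called at D0 too, at -1.77 (limma adjusted p = 0.00126). Cox20, an assembly factor of complex IV on chromosome 1, was also among the 9 genes called at D4, at 39.3, 23.7 and 37.6 FPKM in WT and 7.41, 7.44 and 10.7 in Fyn-KO cells (difference -1.84 ± 0.26, adjusted p = 0.0229). At D0 0 members were called between the lines by limma, against 0.171% of all genes (0.131% lower, 0.0408% higher). An unadjusted p below 0.05 was found for 17 of 83 members (20.5%) and for 14.6% of all genes. The largest difference below 0 at D0 was that of Uqcrb, at -0.90 ± 0.16 (adjusted p = 0.0601), which was called without the first WT D0 sample (adjusted p = 0.0107), as was Ndufa5 (-0.82, adjusted p = 0.0389).

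Differences between the lines were also taken by chromosome. All 83 tested members and 12203 of the 12257 genes tested could be placed on a chromosome of GRCm38. On chromosomes 1, 6, 8 and 14 the median difference of all genes tested was -0.22 to -0.32 at D0 and -0.23 to -0.40 at D4, with 74.5 to 85.8% and 79.6 to 89.0% of the genes below 0. On the other 16 chromosomes the medians were -0.08 to 0.09 and -0.05 to 0.06. These 4 chromosomes were set apart after their medians were seen, with a limit of -0.15. Of the members, 13 lie on chromosomes 1, 6 and 8, and all 13 were below 0 at both days, with a median of -0.36 at D0 and -0.34 at D4. Beside them, 2169 genes of the 4 chromosomes, those placed by symbol without synonyms, had medians of -0.26 and -0.29. The 70 members elsewhere had medians of -0.07 and 0.03, with 43 and 29 of them below 0. On chromosome 8 lie Ndufb7 and Ndufa13, accessory subunits of complex I, and Cox4i1: the first differed by -0.63 and -0.57, the second by -0.48 and -0.58 and the third by -0.42 and -0.34, none of them called. Atp5g1 lies on chromosome 11, whose median was -0.08 at D0, but 120 tested genes within 5 Mb of it, placed without synonyms too, had medians of -0.38 and -0.23, beside -0.68 and -0.65 for Atp5g1 itself (adjusted p = 0.0884 and 0.116). Taken in the same way, 152 genes within 5 Mb of Ndufs7 had medians of 0.08 and 0.03, and 42 around Uqcrb of 0.08 and 0.04. What lies behind the lower levels of whole chromosomes in the Fyn-KO clone was not tested.

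**Figure D5:**
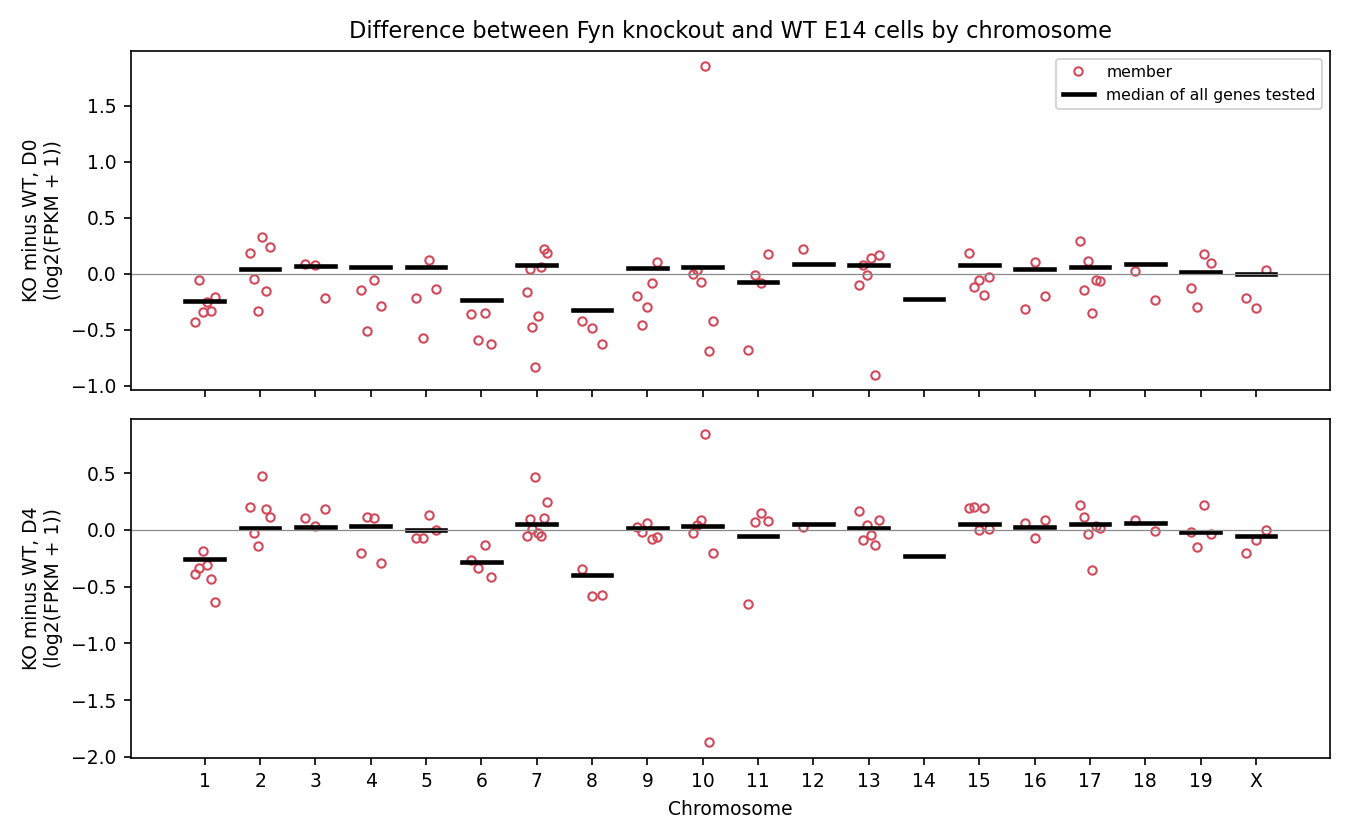
Difference between Fyn-KO and WT E14 cells at D0 (top) and D4 (bottom) on the log2(FPKM + 1) scale by chromosome, with black bars for the median of all genes tested on it and red circles for single members. The bars of chromosomes 1, 6, 8 and 14 lie at -0.22 to -0.40, and the lowest circle at D4, on chromosome 10, is Ndufs7 at -1.87.

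Promoter sequences (250 bases before to 50 after the annotated start, RefSeq, GRCm38.p6) could be matched for 68 of the 84 subunit genes. They were searched on both strands for 3 motifs known from this class of genes, the NRF1 motif (GCGCA, any base, then GCGC), the ETS motif CCGGAAG and the YY1 motif AAGATGGC. They were found in 16 (23.5%), 15 (22.1%) and 9 (13.2%) of the 68, and in 4.78%, 9.12% and 2.88% of all 27025 promoters of the same length. The windows of 4 of the named genes are printed with matches in capitals. Those of Atp5b, Cox5a and Ndufb10, lower in all 4 courses, held none of the 3 motifs and are not printed. Ndufs7 (plus strand, chr10:80249199-80249498) held 1 YY1 motif, Uqcrc1 (plus strand, chr9:108936398-108936697) held 2 NRF1 motifs, Atp5g2 (minus strand, chr15:102670998-102671297) held 1 NRF1 motif, and the window of Atp5g1 (minus strand, chr11:96075582-96075881) held none of these letters. The Ndufs7 window lies within the gene span given above, so the annotated start it follows is not the first base of that span.
Ndufs7: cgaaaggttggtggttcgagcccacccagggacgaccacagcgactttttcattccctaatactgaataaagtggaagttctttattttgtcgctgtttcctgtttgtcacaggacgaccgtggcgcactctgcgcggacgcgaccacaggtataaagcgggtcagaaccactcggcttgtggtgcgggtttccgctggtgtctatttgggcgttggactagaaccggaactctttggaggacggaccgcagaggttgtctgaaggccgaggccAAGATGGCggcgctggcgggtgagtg
Uqcrc1: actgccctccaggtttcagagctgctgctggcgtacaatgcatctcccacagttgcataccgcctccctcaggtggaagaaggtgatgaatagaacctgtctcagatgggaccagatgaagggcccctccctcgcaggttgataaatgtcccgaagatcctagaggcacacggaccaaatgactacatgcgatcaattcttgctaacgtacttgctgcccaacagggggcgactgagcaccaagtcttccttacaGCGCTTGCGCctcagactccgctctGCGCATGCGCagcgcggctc
Atp5g2: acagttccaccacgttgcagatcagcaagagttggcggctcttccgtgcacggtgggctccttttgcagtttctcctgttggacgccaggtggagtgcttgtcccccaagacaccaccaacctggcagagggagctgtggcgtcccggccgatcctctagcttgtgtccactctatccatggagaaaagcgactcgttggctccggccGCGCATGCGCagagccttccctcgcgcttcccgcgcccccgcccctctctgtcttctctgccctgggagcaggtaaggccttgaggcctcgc
Atp5g1: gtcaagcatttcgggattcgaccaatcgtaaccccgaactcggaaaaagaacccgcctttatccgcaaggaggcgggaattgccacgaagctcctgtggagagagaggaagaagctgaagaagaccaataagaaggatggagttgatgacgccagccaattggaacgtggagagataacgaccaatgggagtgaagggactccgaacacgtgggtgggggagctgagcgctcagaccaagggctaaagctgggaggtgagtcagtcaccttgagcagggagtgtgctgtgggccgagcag
A match is a description of the letters and not of binding, which was not measured.

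Genes that serve the complexes without being subunits were counted from lists chosen by function, beside the 30.1% of all genes called lower and 37.4% called higher in SFEB and the 24.9% and 34.7% in the adherent culture. No test set a list apart from other genes. Of 12 tested complex IV assembly factors, 5 fell and 2 rose in SFEB and 4 fell and 1 rose in the adherent culture between the first and last window, with Cox18 (-1.05 and -0.69) and Cox17 (-0.84 and -0.83) lowest and Cox19 highest (0.60 and 0.52). Of 9 complex I assembly factors 1 fell and 1 rose in SFEB and 3 fell in the adherent culture, led by Ecsit (-0.69 and -1.11). Of 6 factors for complexes II and III 3 rose and 1 fell in SFEB and 2 rose and 1 fell in the adherent culture, with Bcs1l, which inserts the Rieske protein, lower (-0.25 and -0.51). The complex V factors Atpaf1 and Atpaf2 fell in both, and Tmem70 rose in the adherent culture (0.36). Cyct, the testis form of cytochrome c, fell by 2.48 and by 2.08, while the widely used form was not called. Of 17 genes of the tricarboxylic acid cycle and its entry 7 fell and 2 rose in SFEB and 6 fell in the adherent culture, with pyruvate carboxylase, Pcx, lowest (-0.78 in SFEB and -1.0 in the adherent culture). Of 14 regulators of mitochondrial genes 7 fell and 2 rose in SFEB and 6 fell and 1 rose in the adherent culture, with Esrrb, a receptor of the naive ES cell state, lowest (-3.56 and -3.79) and its relative Esrrg highest (1.56 and 1.22). The 17 glycolysis genes went apart between the cultures: 1 rose and 8 fell in SFEB (median difference -0.42), and 8 rose and 3 fell in the adherent culture (median 0.39). Pfkp, a phosphofructokinase, fell in both (-2.03 and -2.21), and Tpi1 (1.44) and Pgk1 (1.38) rose most in the adherent culture. No test compared the cultures.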

How the data were processed

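RNA sequencing of cell populations and manually picked single cells was analysed from 4 deposited expression tables. The study's methods name Tophat and Cufflinks on mm9 with 1 alignment kept per read, and the submitters' notes name TopHat2 2.0.8b and Cufflinks 2.1.1, with mm10 for E14, and which made each table is not given in the sources used here. The adherent and E14 values were deposited as FPKM. The authors merged the SFEB series with a batch correction (ComBat) of FPKM, whose values below 0 were set to 0 here, which narrows differences between the series. The single-cell values were deposited as log10 of RPKM + 1 and quantile normalized by the authors, so differences in total RNA between cells were removed. No table holds counts, so the depth behind a value is unknown and no counting interval is given; subunits with near-identical processed copies in the genome are uncertain, since reads can be shared with them.

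The sum over genes was 415066 to 572961 FPKM per SFEB sample, 463349 to 557785 in the adherent culture and 525639 to 909369 in E14, where the largest sums came with small RNA genes (without them the range was 510775 to 596731). Every per-sample column was matched to its sample by name. Values were tested as log2(FPKM + 1) with limma 3.58.1 (trended empirical Bayes) in R 4.3.3 on all genes that reached 1 FPKM in 3 or more samples, with Benjamini-Hochberg adjustment over all genes tested and a threshold of 0.05. The SFEB model held a series term, the E14 model 4 groups, and single cells entered as time point means. A fold change on this scale understates the change of low genes. Scripts were tested on simulated data with known changes. The same replicate number paired the samples in E14 by their deviations from the group means in 2 comparisons: correlations were 0.20, 0.22 and 0.22 between WT D0 and WT D4, and 0.14, 0.26 and 0.24 between the lines at D4, and lower or mixed elsewhere. The labels do not say what the number marks.

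Alternatives were another pseudocount (0.1), no filter, other scalings, each sample left out, each SFEB series alone and a replicate block. Members, gene lists and windows were chosen with earlier results of these data known. Named genes are the 3 largest called rises and falls of each comparison, members of paralog families, nuclear core subunits of complex I (1 of which is not reported here), complexes II and III, genes with a median below 1 FPKM, members that are not subunits, and the largest changes of the other lists. Atp5b, Cox5a and Ndufb10, lower in all 4 courses, and Cox20, Mum1, Ndufa5, Ndufb7 and Ndufa13 were named after their values were seen.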

Additional observations from a re-analysis of the deposited data

Results flagged for a closer look

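Dixon's test at its 95% critical value looked for a sample far from the others of its window or time point. In the R1 populations it covered the FPKM of Atp5g1, Uqcrc1, Cox5a, Atp5b, Ndufb10, Ndufs7, Ndufs4, Cox7a2l, Uqcrh, Cox7a1, Cox6b2, Ndufa4l2 and Uqcrb. It also covered the summed FPKM of each complex and of all subunits, and the Atp5g1 share. In single cells it covered the members detected and their mean value per cell. The E14 groups, the third adherent window (3 samples) and other named genes were not tested. Of 156 groups of values tested 17 were flagged, where chance flags about 1 in 20. In the first SFEB window the 2 h sample was the highest and far from the next in 9 of them: Cox5a at 602 FPKM (next 417), Ndufs7 at 275 (next 169), Ndufs4 at 50.5 (next 38.1), Cox7a2l at 149 (next 94.6), Uqcrh at 193 (next 105), the summed FPKM of complex I at 5291 (next 3900), of complex II at 534 (next 425), of complex IV at 5063 (next 3995) and of all subunits at 19163 (next 14975). The same library held the highest value of 12.03% of all genes and the lowest of 18.2%, so it stood apart beyond the subunits, and the cause was not tested.

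Later SFEB samples flagged were Atp5b at 84 h in the second series (1010 FPKM, next 878), Atp5g1 at 144 h (154, next 140) and Ndufb10 at 216 h (79.3, next 66.9). In the adherent culture they were the complex V sum at 2.5 h (5461, next 5642), Cox6b2 at 144 h (73.0, next 31.5), the complex II sum at 125.5 h (444, next 470) and the complex V sum at 140.5 h (4437, next 4223). Among the cells at 38 h, 1 cell had 58 members detected (next 69).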

How the results depend on the processing

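All counts here are of members called. From the first to the last window SFEB gave 25 to 37 and the adherent culture 29 to 39 when single samples were left out, so these 2 counts stayed within 1.5 times the reported ones except for the second SFEB series alone (6). The steps between windows depended on single samples. In SFEB the first step (19) gave 13 to 25, 29 after quantile normalization and 1 in the second series alone. The second step (6) gave 2 (without 38 h) to 14 (without 2 h), with 3 without 34, 42.5, 54.5, 103 or 106 h, 10 after scaling to a common total, 18 after quantile normalization, 3 in the first series alone and 0 in the second. The last step (13) gave 5 (without 216 h) to 20 (without 2 h), with 6 without 84 or 142 h, and 1 and 0 in the series alone. In the adherent culture the first step (6) gave 0 (without 8.5 h) to 9, with 1 without 2.5 or 20.5 h and 3 without 53.5, 80.5 or 140.5 h. The second step (19) gave 4 (without 92.5 h) to 32 (without 68.5 h), with 8 without 35.5 or 101.5 h, 10 without 41.5 h and 11 without 80.5 h, and the last step (0) gave 0 to 2. Without both the 35.5 and 41.5 h samples, an alternative chosen after seeing the data, the first 2 steps gave 15 and 1. Single cells gave 0 in each alternative.

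In E14 the WT change (13) gave 5 (without WT D0 sample 2 or 3 or WT D4 sample 1) to 15, 8 without WT D4 sample 2, and 24, all lower, after scaling to a common total, which moved the median of all genes from 0.08 to -0.25. The Fyn-KO change (7) gave 3 (without Fyn-KO D0 sample 1 or 2) to 12 (without D0 sample 3), 4 without D4 sample 1 or 3, and 12 after scaling without small RNA genes, chosen after seeing the data. The lines differed in 1 member at D4 in each alternative, and at D0 in 0 to 2 (2 without WT D0 sample 1) and in 1 after scaling without small RNA genes. The interaction stayed at 0. With the replicate block the counts were 15 (WT), 10 (Fyn-KO), 1 (D4), 0 (D0) and 0 (interaction), and the block changed no count by over 1.5 times. No called count changed direction, though within the second SFEB series Cox7a1 had the other sign at the second step and Ndufs8 from the first to the last window. The causes were not tested. Without counts, the precision of low genes cannot be given.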
